A study of Homo sapiens with 12 samples.

Results

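The genes described here encode the DNA replication machinery: 46 genes for origin licensing, helicase activation, the replicative polymerases, the sliding clamp and its loader, single-strand binding, Okazaki fragment maturation, nucleotide supply and chromatin assembly behind the fork, with the transcription factor E2F1. They were picked by gene symbol, with no measured value in the rule, out of 24528 genes in the table. The list was, however, chosen with earlier results of these data known. All 46 passed the filter on low counts and were among the 15021 genes tested. The lowest count of any of them in any library was 193 reads.

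Cells license origins in G1, when the origin recognition complex, CDC6 and CDT1 load the MCM helicase onto DNA. In S phase CDC45 and the GINS complex turn the loaded helicase on, and the polymerases, the PCNA clamp and the enzymes that make deoxynucleotides follow. Many of these genes are transcribed in a pulse under the control of the E2F factors and their RB-family repressors, so their summed RNA in a culture depends on how many of its cells are in S phase.

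RNA was sequenced from MIA PaCa-2, an established human pancreatic carcinoma line, after lentiviral delivery of shRNAs. There were 4 groups of 3 libraries: double knockdown cells, which were sorted as positive for both tags; Msi1 knockdown cells, whose virus carried GFP; Msi2 knockdown cells, whose virus carried Tomato Red; and cells with a scrambled control shRNA. MSI1 and MSI2 encode the Musashi RNA-binding proteins. All groups shared the line, the viral vector system, sorting at 72 hours after infection and an input of 200 ng of total RNA. The sources used here do not give the tag and gate of the control cells, the number of shRNAs per gene or whether the 3 libraries of a group came from separate cultures. The p-values therefore measure the spread between these libraries, which may be technical. In such bulk RNA, a smaller number of cells that express a gene and less of its RNA per cell cannot be told apart.

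Library totals ran from 10.95e6 to 56.12e6 estimated counts. Both targeted transcripts were low where their shRNA was used: MSI1 averaged 1.71 ± 0.284 CPM (reads per 1e6 after TMM scaling) in double, 1.84 ± 0.192 in Msi1, 6.14 ± 0.819 in Msi2 and 4.53 ± 0.399 in control libraries (SD, n = 3 each). MSI2 averaged 11.8 ± 0.619 CPM in double, 54.0 ± 2.28 in Msi1, 15.0 ± 2.36 in Msi2 and 82.7 ± 3.09 in control libraries (SD, n = 3 each). The Msi1 libraries thus also held less MSI2 transcript than control, and the Msi2 libraries held more MSI1 transcript than control. Libraries differed along a shared trend. Its gene weights are the leading component of the deviations from the group means, which took 54.1% of that variance. The score of a library applies these weights to its levels centred on the mean of all libraries. The scores therefore also hold differences between groups. The sign of the trend is arbitrary and was set so that double libraries score low. The 3 double libraries scored −1.54, −1.32 and −1.06 on it, below all the others, against 0.09 to 1.38 in Msi1, −0.34 to 1.07 in Msi2 and −0.39 to 0.68 in control libraries. The keratins KRT8 and KRT18 and vimentin were abundant in all libraries, and KRT19 ranged from 43.2 to 80.9 CPM. The epithelial markers EPCAM and KRT7 were under 1 CPM in all libraries, and CDH1 reached at most 1.01 CPM. Markers of pancreatic acinar and endocrine cells summed to at most 0.145 CPM in any library, and neuronal markers of packaging cells to at most 0.36. Summed blood-cell markers, led by CD68, were 48.5 to 52.9 CPM in double, 37.2 to 44.1 in Msi1, 47.6 to 47.9 in Msi2 and 17.9 to 20.4 in control libraries, with CD3E at 0 throughout. Summed endothelial markers, led by CDH5, were 20.5 to 22.9 CPM in double, 27.6 to 34.6 in Msi1, 13.2 to 13.7 in Msi2 and 7.37 to 8.63 in control libraries. Summed fibroblast markers were 557 to 650.0 CPM in double, 668 to 811 in Msi1, 783 to 894 in Msi2 and 611 to 747 in control libraries. The part of these markers in the results below was not tested.

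RNA of most of the replication machinery was higher in the double knockdown than in control cells. In each single knockdown fewer of its genes passed the test. They were evenly split between upward and downward in the Msi1 knockdown and mostly downward in the Msi2 knockdown. In the double knockdown 33 of the 46 genes rose and 1 fell against control (edgeR quasi-likelihood test, Benjamini-Hochberg adjusted p below 0.05), where 26.6% of all tested genes rose and 25.3% fell. The median log2 change of the 46 genes was 0.28, against −0.02 over all tested genes. The largest rises were those of RRM2, GINS3, MCM6 and CDT1, and MCM3 was the single gene that fell. In the Msi1 knockdown 7 of the 46 rose and 7 fell, where 18.5% of all tested genes rose and 20.9% fell, and their median was −0.03. In the Msi2 knockdown 2 rose and 8 fell, where 16.7% of all tested genes rose and 13.6% fell, and their median was −0.09. The 3 comparisons with control share the control libraries.

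**Figure D1:**
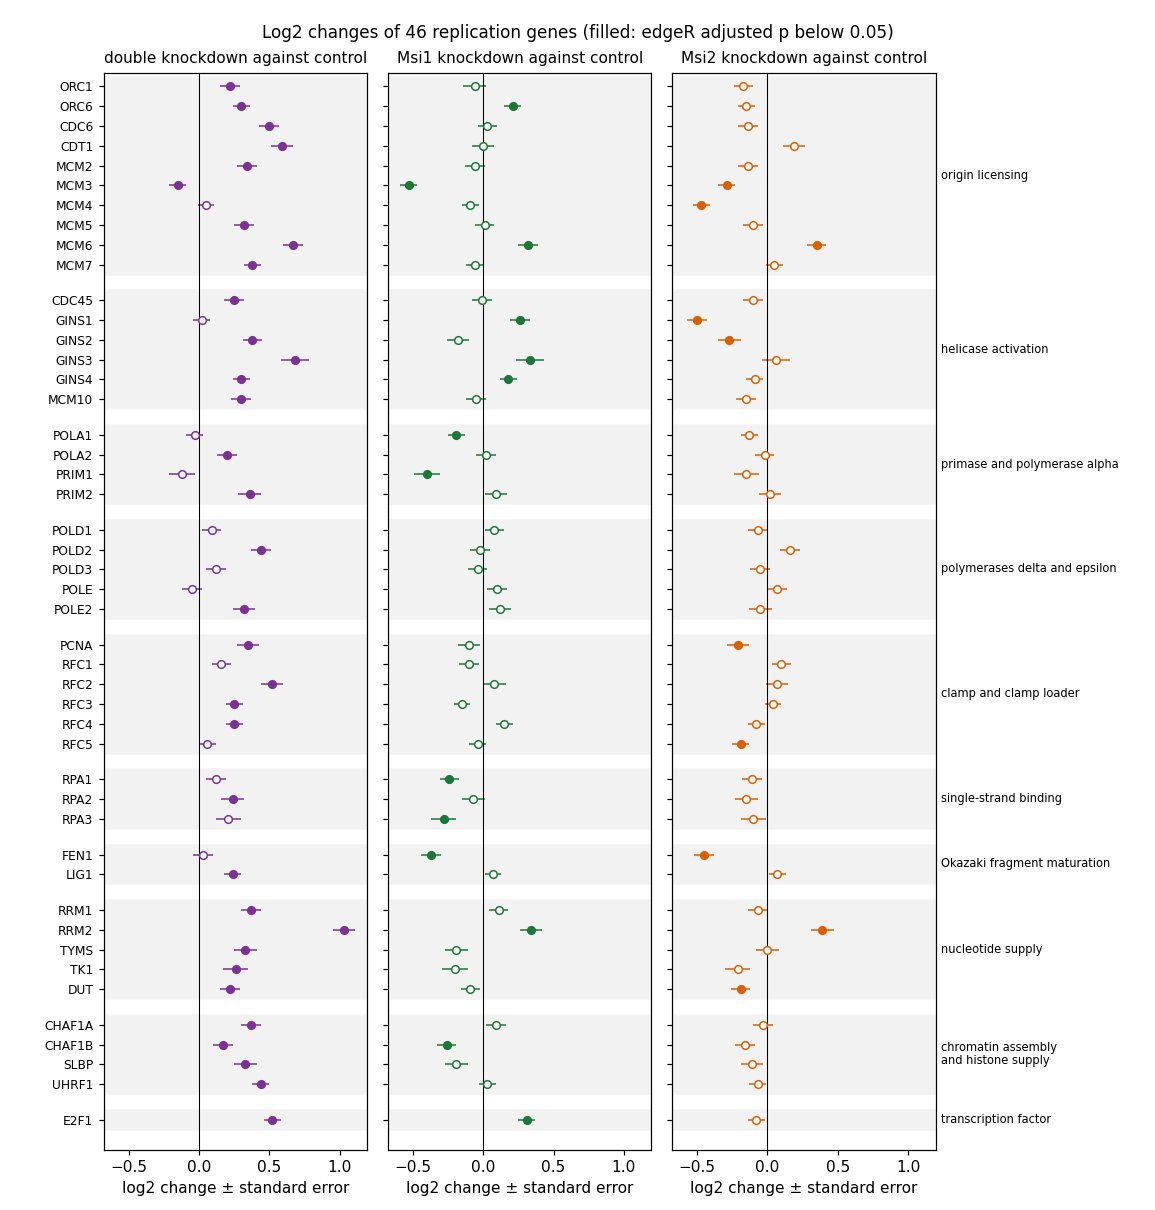
Log2 change against control (x axis, with its standard error) of each of the 46 genes (y axis, by role) in the double, Msi1 and Msi2 knockdowns, 3 libraries per group. Filled points passed the edgeR test: 34 in the double knockdown, nearly all right of 0, against 14 in the Msi1 and 10 in the Msi2 knockdown. Those of Msi1 lie 7 on each side of 0, and those of Msi2 lie 2 right and 8 left of it.

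Library by library, the median log2 ratio of the 46 genes to their control means was 0.30, 0.31 and 0.21 in the double libraries, 0.04, −0.09 and −0.05 in the Msi1 libraries, −0.07, −0.16 and −0.06 in the Msi2 libraries and 0.01, −0.05 and 0.03 in the control libraries. The double libraries stood above all 9 others. Summed over the 46 genes the level was 4624, 4508 and 4296 CPM in the double libraries, 3749, 3390.0 and 3449 CPM in the Msi1 libraries, 3528, 3300.3 and 3592 CPM in the Msi2 libraries and 3626, 3479 and 3669 CPM in the control libraries. For 36 of the 46 genes all 3 double libraries lay above all 3 control libraries, and for 1 all lay below, where 30.8% and 28.9% of all tested genes did so.

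**Figure D2:**
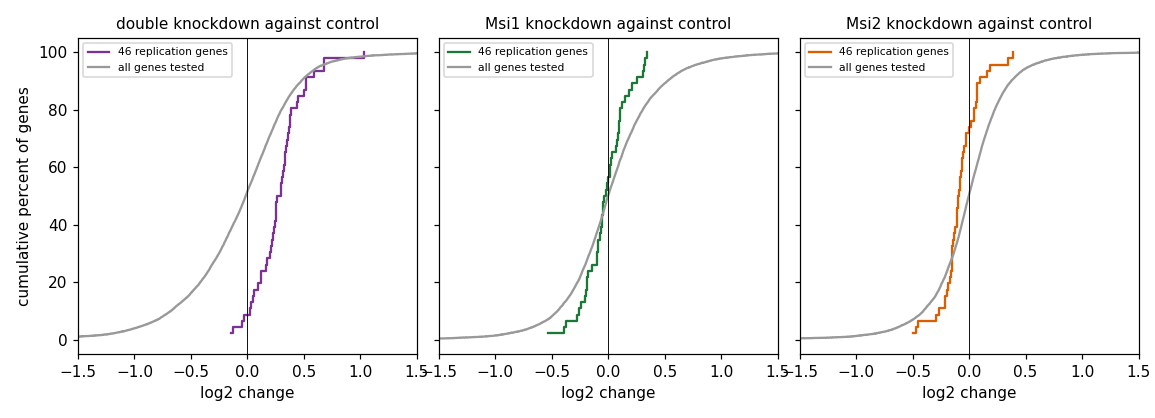
Cumulative percent of genes (y axis) by log2 change against control (x axis) for the 46 replication genes and for all 15021 genes tested, in the double, Msi1 and Msi2 knockdowns. The curve of the 46 genes lies right of that of all genes in the double knockdown, with medians of 0.28 and −0.02. In the single knockdowns the median of the 46 genes was −0.03 in Msi1 and −0.09 in Msi2.

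The promoters of RRM2 and MCM6 and of MCM3 and FEN1 are shown. RRM2 and MCM6 are the 2 genes most often called upward in the 3 comparisons with control. MCM3 and FEN1 are the 2 most often called downward, and FEN1 fell in the single knockdowns only. The RefSeq promoter table (GRCh38.p14) held 40 of the 46 genes, each with 250 bases before and 50 after the start. The 250 bases before the start are printed 5′ to 3′ on the gene's strand. Capitals mark matches, on either strand, to the E2F spellings TTTCCCGC, TTTGGCGC, TTTCGCGC and TTTGCCGC or to the CCAAT box, which reads ATTGG where it lies on the other strand.
RRM2, chr2:10122489-10122738, plus strand: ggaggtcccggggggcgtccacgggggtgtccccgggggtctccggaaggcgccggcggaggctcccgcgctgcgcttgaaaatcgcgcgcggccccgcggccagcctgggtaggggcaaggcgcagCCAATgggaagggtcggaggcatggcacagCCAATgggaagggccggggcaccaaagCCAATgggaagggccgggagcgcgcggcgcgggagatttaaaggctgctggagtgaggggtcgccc
MCM6, chr2:135876444-135876693, minus strand: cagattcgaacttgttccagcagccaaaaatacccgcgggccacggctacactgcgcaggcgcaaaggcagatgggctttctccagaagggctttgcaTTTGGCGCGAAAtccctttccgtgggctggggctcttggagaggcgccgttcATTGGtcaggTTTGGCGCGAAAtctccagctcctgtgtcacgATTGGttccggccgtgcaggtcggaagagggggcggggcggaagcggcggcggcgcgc
MCM3, chr6:52284743-52284992, minus strand: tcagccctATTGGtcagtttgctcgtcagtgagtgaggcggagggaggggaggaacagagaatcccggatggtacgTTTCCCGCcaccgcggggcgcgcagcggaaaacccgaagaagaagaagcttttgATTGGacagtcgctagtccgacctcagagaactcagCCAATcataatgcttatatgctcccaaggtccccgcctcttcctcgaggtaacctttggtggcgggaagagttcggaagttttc
FEN1, chr11:61792661-61792910, plus strand: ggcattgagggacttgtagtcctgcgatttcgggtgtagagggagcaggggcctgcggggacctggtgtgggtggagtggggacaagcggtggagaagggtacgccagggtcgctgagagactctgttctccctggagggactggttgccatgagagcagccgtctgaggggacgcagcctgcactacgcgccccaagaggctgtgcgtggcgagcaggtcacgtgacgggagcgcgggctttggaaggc

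RRM2 held 3 CCAAT boxes and no E2F spelling in this window. MCM6 held a pair of E2F matches that each overlap a second match on the other strand, and 2 CCAAT boxes. MCM3, although it fell, held 1 E2F match and 3 CCAAT boxes before its start, with another E2F match across the start that is not shown, and FEN1 held none of these. Over the 300-base windows, 19 of the 40 promoters (47.5%) held an E2F spelling, against 3.33% of 27305 promoters in the table and 5.08% of those of 11874 tested genes. The CCAAT box was in 57.5% of the members' windows, against 35.7% of all and 36.3% of those of tested genes. The E2F spellings were in 15 of the 30 members that rose in the double knockdown and in 4 of the 10 that did not, and the CCAAT box was in 15 of the 30 and in 8 of the 10. TTTGAA, the core of the cell cycle element CHR, was in 1 of the 40 windows (2.5%), against 15.4% of all and 9.9% of those of tested genes. These matches describe letters in a window and do not show that a factor binds there.

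Of the 10 genes of origin licensing, 8 rose and 1 fell in the double knockdown, with a median log2 change of 0.33. This count and those by role below stand beside 26.6% of all tested genes that rose and 25.3% that fell. ORC1, the largest subunit of the origin recognition complex, had 24.7, 24.2 and 23.1 CPM in the double libraries, 20.8, 18.5 and 19.9 CPM in the Msi1 libraries, 19.9, 17.3 and 17.8 CPM in the Msi2 libraries and 20.6, 19.8 and 21.7 CPM in the control libraries. Each double library was above every other library. The change against control was 0.22 ± 0.07 (SE, adjusted p = 0.016). ORC6, the smallest subunit, had 73.1, 76.0 and 70.0 CPM in the double libraries, 70.0, 69.1 and 66.3 CPM in the Msi1 libraries, 53.7, 55.3 and 50.8 CPM in the Msi2 libraries and 56.6, 63.3 and 57.3 CPM in the control libraries. Double and Msi1 libraries lay above all Msi2 and control libraries, and the highest Msi1 library was close to the lowest double library. ORC6 rose by 0.30 ± 0.06 (SE, adjusted p = 0.000443) in the double and by 0.21 ± 0.06 (SE, adjusted p = 0.011) in the Msi1 knockdown, with −0.15 ± 0.06 in the Msi2 knockdown, which did not pass the test.

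CDC6 and CDT1 work with the origin recognition complex to load the helicase. CDC6 had 76.5, 71.7 and 69.6 CPM in the double libraries, 57.0, 47.9 and 53.1 CPM in the Msi1 libraries, 46.8, 44.1 and 49.5 CPM in the Msi2 libraries and 52.9, 47.9 and 54.2 CPM in the control libraries. The double libraries were above all 9 others, which overlapped one another. Its log2 change was 0.50 ± 0.07 (SE, adjusted p = 1.51e-05) in the double knockdown, and neither single knockdown passed the test. CDT1, the loading factor that geminin inhibits, had 56.6, 51.7 and 49.6 CPM in the double libraries, 37.0, 34.5 and 33.0 CPM in the Msi1 libraries, 40.5, 35.9 and 42.9 CPM in the Msi2 libraries and 33.9, 34.4 and 37.1 CPM in the control libraries. Here too the double libraries were clear of the rest, and the change against control was 0.59 ± 0.08 (SE, adjusted p = 3.18e-06).

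The MCM2 to MCM7 proteins form the ring of the replicative helicase, and their calls were not alike. MCM2 had 225, 210.0 and 196 CPM in the double libraries, 172, 155 and 150.3 CPM in the Msi1 libraries, 158, 141 and 155 CPM in the Msi2 libraries and 173, 158 and 168 CPM in the control libraries. MCM5 had 78.5, 74.8 and 68.4 CPM in the double libraries, 59.6, 59.9 and 59.5 CPM in the Msi1 libraries, 57.9, 50.7 and 56.9 CPM in the Msi2 libraries and 57.4, 59.0 and 61.7 CPM in the control libraries. MCM7 had 361, 339.7 and 315 CPM in the double libraries, 261, 242 and 248 CPM in the Msi1 libraries, 275, 262 and 270.1 CPM in the Msi2 libraries and 252, 257 and 272 CPM in the control libraries. For each of these the double libraries were above all others and the single knockdowns overlapped control, with double-knockdown changes of 0.34 ± 0.07 (SE, adjusted p = 0.000498) for MCM2, 0.32 ± 0.07 (SE, adjusted p = 0.000477) for MCM5 and 0.38 ± 0.06 (SE, adjusted p = 7.73e-05) for MCM7. MCM6 had 199, 193 and 183 CPM in the double libraries, 161, 142 and 145 CPM in the Msi1 libraries, 153, 143 and 163 CPM in the Msi2 libraries and 129.5, 110.1 and 120.1 CPM in the control libraries. All knockdown libraries were above all control libraries, and the double libraries were above both singles. MCM6 rose by 0.67 ± 0.07 (SE, adjusted p = 4.20e-07) in the double, 0.32 ± 0.07 (SE, adjusted p = 0.00165) in the Msi1 and 0.35 ± 0.07 (SE, adjusted p = 0.00109) in the Msi2 knockdown.

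MCM3 and MCM4 did not rise in the double knockdown. MCM3 had 146, 137 and 138 CPM in the double libraries, 112, 104 and 106 CPM in the Msi1 libraries, 128, 125 and 128 CPM in the Msi2 libraries and 157, 153 and 157 CPM in the control libraries. The 4 groups did not overlap, with Msi1 lowest, then Msi2, then the double knockdown, and control highest. MCM3 fell by 0.15 ± 0.06 (SE, adjusted p = 0.0314) in the double, 0.53 ± 0.06 (SE, adjusted p = 3.76e-07) in the Msi1 and 0.29 ± 0.06 (SE, adjusted p = 0.000506) in the Msi2 knockdown on the log2 scale. The small fall in the double knockdown lost its call when double library 2 or 3 or control library 1 or 3 was left out. MCM4 had 207, 206 and 198 CPM in the double libraries, 192, 177 and 185 CPM in the Msi1 libraries, 144, 138 and 146 CPM in the Msi2 libraries and 199, 187 and 206 CPM in the control libraries. Only the Msi2 libraries stood apart from the control libraries, with a fall of 0.47 ± 0.06 (SE, adjusted p = 8.31e-06), while the double knockdown change was 0.05 ± 0.06 (SE, adjusted p = 0.526).

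**Figure D3:**
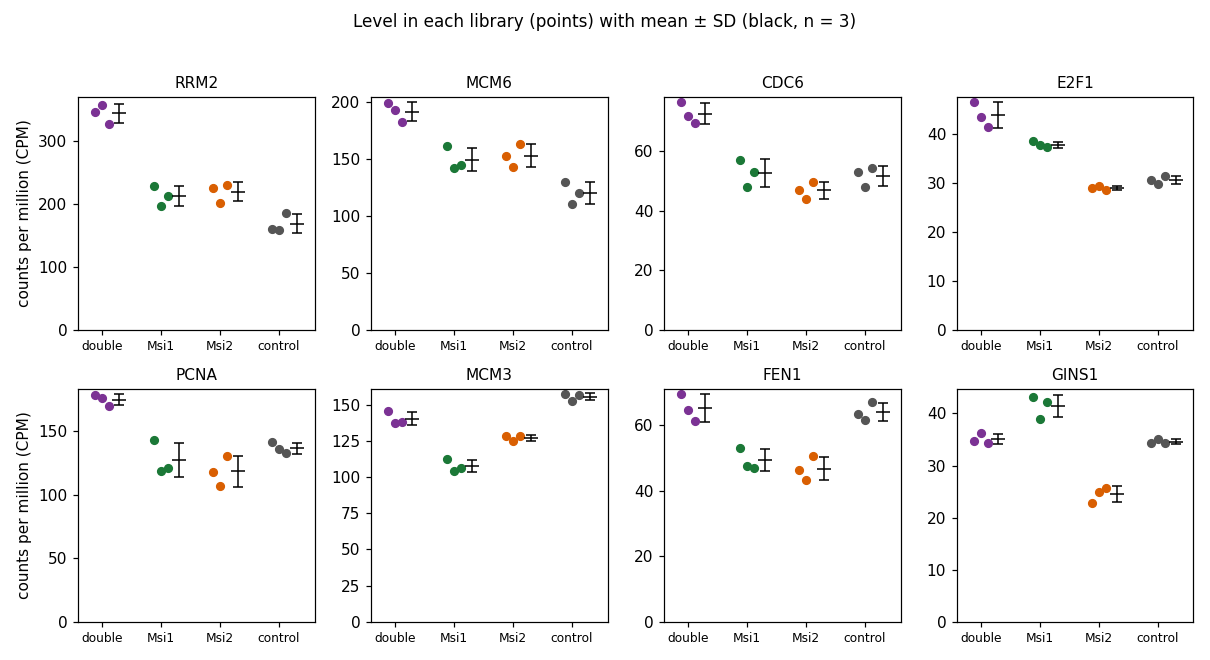
Level in CPM (y axis, from 0) of RRM2, MCM6, CDC6, E2F1, PCNA, MCM3, FEN1 and GINS1 in each of the 3 libraries of the double, Msi1, Msi2 and control groups (colored points, x axis), with mean ± SD in black. RRM2 and MCM6 are lowest in control libraries, MCM3 is highest in them, and FEN1 is low in the Msi1 and Msi2 libraries only.

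Of the 6 genes of helicase activation, 5 rose in the double knockdown. CDC45, which joins the helicase at the origin, had 28.6, 27.5 and 26.3 CPM in the double libraries, 24.0, 22.0 and 23.0 CPM in the Msi1 libraries, 21.7, 21.6 and 21.5 CPM in the Msi2 libraries and 22.3, 22.6 and 25.2 CPM in the control libraries. MCM10, which takes part in turning the helicase on, had 39.7, 40.8 and 40.5 CPM in the double libraries, 33.4, 29.6 and 32.2 CPM in the Msi1 libraries, 31.1, 27.4 and 30.2 CPM in the Msi2 libraries and 32.6, 32.5 and 33.3 CPM in the control libraries. For both, the double libraries were above the rest, with changes of 0.25 ± 0.07 (SE, adjusted p = 0.00431) for CDC45 and 0.30 ± 0.07 (SE, adjusted p = 0.000872) for MCM10.

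The GINS complex is the other helicase partner, and the calls of its 4 subunit genes differed. GINS1 had 34.6, 36.2 and 34.4 CPM in the double libraries, 43.1, 39.0 and 42.3 CPM in the Msi1 libraries, 22.7, 24.9 and 25.8 CPM in the Msi2 libraries and 34.4, 35.2 and 34.2 CPM in the control libraries. The Msi1 libraries were highest, the Msi2 libraries lowest, and the double libraries overlapped control. GINS1 rose by 0.26 ± 0.07 (SE, adjusted p = 0.00368) in the Msi1 knockdown and fell by 0.50 ± 0.07 (SE, adjusted p = 1.19e-05) in the Msi2 knockdown, and the double knockdown change was 0.02 ± 0.06 (SE, adjusted p = 0.834). GINS2 had 45.5, 41.1 and 39.5 CPM in the double libraries, 30.7, 27.5 and 27.4 CPM in the Msi1 libraries, 26.8, 24.8 and 28.8 CPM in the Msi2 libraries and 33.5, 32.3 and 30.3 CPM in the control libraries. The double libraries were above control and the Msi2 libraries below it: GINS2 rose by 0.38 ± 0.07 (SE, adjusted p = 0.000293) in the double knockdown and fell by 0.27 ± 0.08 (SE, adjusted p = 0.0111) in the Msi2 knockdown. GINS3 had 31.8, 31.5 and 29.1 CPM in the double libraries, 27.3, 22.5 and 22.6 CPM in the Msi1 libraries, 20.1, 17.9 and 22.3 CPM in the Msi2 libraries and 19.0, 17.0 and 23.0 CPM in the control libraries. Double libraries were clear of the others, but Msi1 overlapped control. The GINS3 change was 0.68 ± 0.10 (SE, adjusted p = 2.02e-05) in the double and 0.33 ± 0.10 (SE, adjusted p = 0.0167) in the Msi1 knockdown. GINS4 had 69.4, 71.5 and 65.5 CPM in the double libraries, 66.0, 64.4 and 60.1 CPM in the Msi1 libraries, 54.5, 50.9 and 52.8 CPM in the Msi2 libraries and 55.4, 54.3 and 59.1 CPM in the control libraries. Double and Msi1 libraries were both above the control libraries and overlapped each other, with rises of 0.30 ± 0.06 (SE, adjusted p = 0.000533) in the double and 0.18 ± 0.06 (SE, adjusted p = 0.0265) in the Msi1 knockdown.

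Primase and polymerase alpha lay the RNA-DNA primers. Of their 4 genes 2 rose in the double knockdown, the accessory subunit POLA2 by 0.20 ± 0.07 (SE, adjusted p = 0.0183) and the primase regulatory subunit PRIM2 by 0.36 ± 0.08 (SE, adjusted p = 0.000955). The catalytic subunits did not. POLA1, the catalytic subunit of polymerase alpha, had 50.2, 52.9 and 51.2 CPM in the double libraries, 50.7, 43.6 and 43.8 CPM in the Msi1 libraries, 49.4, 46.7 and 48.4 CPM in the Msi2 libraries and 53.2, 52.4 and 52.2 CPM in the control libraries. The double libraries overlapped control and both singles lay below control, of which the Msi1 fall of 0.19 ± 0.06 (SE, adjusted p = 0.0227) passed. PRIM1, the catalytic primase subunit, had 15.7, 16.7 and 15.3 CPM in the double libraries, 14.8, 12.5 and 12.1 CPM in the Msi1 libraries, 16.4, 14.3 and 16.1 CPM in the Msi2 libraries and 18.2, 16.4 and 17.3 CPM in the control libraries. It was low in the Msi1 libraries, where it fell by 0.40 ± 0.09 (SE, adjusted p = 0.00138), and the double knockdown change was −0.12 ± 0.09 (SE, adjusted p = 0.237). PRIM1 shares 33 exon bases on the same strand with NACA, an abundant transcript that averaged 538 CPM in double and 449 CPM in control libraries, so its reads are uncertain to that extent.

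Polymerases delta and epsilon copy the lagging and the leading strand. Among their 5 genes POLD2 and POLE2, both accessory subunits, rose in the double knockdown (40%, where 26.6% of all tested genes rose). POLD2 had 239.6, 215 and 217 CPM in the double libraries, 174, 154 and 159 CPM in the Msi1 libraries, 189.7, 172 and 191 CPM in the Msi2 libraries and 169, 159 and 166 CPM in the control libraries. The double libraries were above all others, with a change of 0.44 ± 0.07 (SE, adjusted p = 2.18e-05). POLE2 rose by 0.32 ± 0.08 (SE, adjusted p = 0.00165). The catalytic subunits did not pass the test in any comparison with control: in the double knockdown POLD1 changed by 0.09 ± 0.07 (SE, adjusted p = 0.27) and POLE by −0.05 ± 0.07 (SE, adjusted p = 0.626), and their libraries overlapped control in all 3 knockdowns. The accessory subunit POLD3 changed by 0.12 ± 0.07 (SE, adjusted p = 0.136), which also did not pass.

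Of the 6 genes of the clamp and its loader 4 rose in the double knockdown. PCNA, the sliding clamp and, per length, the most abundant of the 46 transcripts in control libraries at 101 CPM per kb, had 178, 176 and 169.8 CPM in the double libraries, 143, 119 and 121 CPM in the Msi1 libraries, 118, 107 and 131 CPM in the Msi2 libraries and 141, 136 and 133 CPM in the control libraries. It rose by 0.35 ± 0.08 (SE, adjusted p = 0.000774) in the double and fell by 0.21 ± 0.08 (SE, adjusted p = 0.0451) in the Msi2 knockdown, with double libraries above and Msi2 libraries below all control libraries. RFC2 to RFC5 are the small subunits of the loader. RFC2 had 88.8, 79.7 and 81.7 CPM in the double libraries, 67.6, 58.2 and 58.8 CPM in the Msi1 libraries, 62.3, 55.4 and 66.1 CPM in the Msi2 libraries and 57.5, 54.0 and 64.8 CPM in the control libraries. RFC3 had 79.6, 85.9 and 81.7 CPM in the double libraries, 65.0, 59.8 and 62.7 CPM in the Msi1 libraries, 72.9, 66.9 and 73.7 CPM in the Msi2 libraries and 71.8, 67.6 and 67.9 CPM in the control libraries. Both were highest in the double libraries, with rises of 0.52 ± 0.08 (SE, adjusted p = 3.11e-05) for RFC2 and 0.25 ± 0.06 (SE, adjusted p = 0.00191) for RFC3. RFC5 had 56.8, 58.0 and 53.7 CPM in the double libraries, 52.1, 52.2 and 52.5 CPM in the Msi1 libraries, 46.2, 48.3 and 47.1 CPM in the Msi2 libraries and 50.4, 53.4 and 58.8 CPM in the control libraries. It overlapped control in the double knockdown, at 0.06 ± 0.06 (SE, adjusted p = 0.427), and fell by 0.19 ± 0.06 (SE, adjusted p = 0.0265) in the Msi2 knockdown. RFC4 rose by 0.25 ± 0.06 (SE, adjusted p = 0.00254) in the double knockdown, and the large subunit RFC1 changed by 0.16 ± 0.07 (SE), with all double above all control libraries but short of the threshold.

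Replication protein A coats the unwound strands, and of its 3 genes only RPA2 rose in the double knockdown. This share of 33.3% was near the 26.6% of all tested genes that rose. RPA1 had 202, 194 and 193 CPM in the double libraries, 166, 145 and 146 CPM in the Msi1 libraries, 171, 156 and 176 CPM in the Msi2 libraries and 188, 162 and 192 CPM in the control libraries. RPA2 had 55.8, 54.6 and 50.5 CPM in the double libraries, 48.2, 41.5 and 39.3 CPM in the Msi1 libraries, 40.2, 37.8 and 44.1 CPM in the Msi2 libraries and 46.8, 43.6 and 45.4 CPM in the control libraries. RPA3 had 58.1, 57.2 and 51.5 CPM in the double libraries, 42.2, 39.4 and 37.4 CPM in the Msi1 libraries, 41.3, 41.2 and 52.2 CPM in the Msi2 libraries and 50.2, 42.9 and 52.0 CPM in the control libraries. RPA1 and RPA2 were highest in the double libraries without overlap, while for RPA3 the double libraries overlapped those of Msi2 and control, and RPA1 and RPA3 were on average lowest in the Msi1 libraries. In the double knockdown the changes were 0.12 ± 0.07 (SE, adjusted p = 0.172) for RPA1, 0.24 ± 0.08 (SE, adjusted p = 0.0126) for RPA2 and 0.21 ± 0.09 (SE, adjusted p = 0.0584) for RPA3. In the Msi1 knockdown RPA1 fell by 0.24 ± 0.07 (SE, adjusted p = 0.013) and RPA3 by 0.28 ± 0.09 (SE, adjusted p = 0.0221).

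Okazaki fragments are trimmed and joined on the lagging strand. FEN1, the nuclease that cuts the displaced flap, had 69.7, 64.6 and 61.3 CPM in the double libraries, 53.1, 47.7 and 47.0 CPM in the Msi1 libraries, 46.4, 43.4 and 50.5 CPM in the Msi2 libraries and 63.4, 61.6 and 67.1 CPM in the control libraries. Both single knockdowns were below the control libraries without overlap, and the double libraries overlapped control. FEN1 fell by 0.37 ± 0.07 (SE, adjusted p = 0.000375) in the Msi1 and by 0.45 ± 0.07 (SE, adjusted p = 8.94e-05) in the Msi2 knockdown, and its double knockdown change was 0.03 ± 0.07 (SE, adjusted p = 0.732). FEN1 exons share 166 bases with TMEM258 on the opposite strand and 49 with FADS2 on the same strand. In the double knockdown TMEM258 changed by 0.29 (edgeR adjusted p = 0.00938) and FADS2 by −0.18 (edgeR adjusted p = 0.0344), so the FEN1 reads are uncertain to that extent. LIG1, the ligase that seals the nick, rose by 0.24 ± 0.06 (SE, adjusted p = 0.00263) in the double knockdown.

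All 5 genes of nucleotide supply rose in the double knockdown, with a median log2 change of 0.33, and their double libraries were all above their control libraries. RRM2, the small subunit of ribonucleotide reductase, which makes deoxynucleotides, had 347, 358 and 328 CPM in the double libraries, 229, 197 and 213 CPM in the Msi1 libraries, 226, 202 and 231 CPM in the Msi2 libraries and 161, 159 and 186 CPM in the control libraries. Control libraries were lowest, the Msi1 and Msi2 libraries overlapped each other above them, and the double libraries were highest. RRM2 rose by 1.03 ± 0.08 (SE, adjusted p = 3.89e-09) in the double knockdown, a 2.05-fold level and the largest change of the 46 genes, by 0.34 ± 0.08 (SE, adjusted p = 0.00131) in the Msi1 and by 0.39 ± 0.08 (SE, adjusted p = 0.000704) in the Msi2 knockdown. RRM1, the large subunit, had 228, 234 and 220.5 CPM in the double libraries, 207, 179 and 184 CPM in the Msi1 libraries, 168, 157 and 179 CPM in the Msi2 libraries and 182, 171 and 177 CPM in the control libraries. It rose by 0.37 ± 0.07 (SE, adjusted p = 0.000163) in the double knockdown only among the 3 comparisons with control.

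TYMS makes thymidylate, TK1 salvages thymidine and DUT removes dUTP. TYMS had 197, 193 and 178 CPM in the double libraries, 149, 122 and 125 CPM in the Msi1 libraries, 148, 139 and 167 CPM in the Msi2 libraries and 158, 147 and 148 CPM in the control libraries. TK1 had 74.6, 65.0 and 64.4 CPM in the double libraries, 55.1, 45.1 and 47.5 CPM in the Msi1 libraries, 50.3, 44.9 and 52.0 CPM in the Msi2 libraries and 58.5, 51.1 and 61.3 CPM in the control libraries. DUT had 44.4, 46.1 and 40.8 CPM in the double libraries, 37.5, 34.4 and 33.9 CPM in the Msi1 libraries, 31.3, 32.0 and 35.5 CPM in the Msi2 libraries and 37.3, 38.1 and 37.5 CPM in the control libraries. For all of them the double libraries were highest, and the single knockdown libraries overlapped control or lay below it. In the double knockdown TYMS changed by 0.33 ± 0.08 (SE, adjusted p = 0.00197), TK1 by 0.26 ± 0.09 (SE, adjusted p = 0.015) and DUT by 0.22 ± 0.07 (SE, adjusted p = 0.0119). DUT fell by 0.19 ± 0.07 (SE, adjusted p = 0.0409) in the Msi2 knockdown. TYMS exons share 967 bases with ENOSF1 on the opposite strand, which averaged 42.3 CPM in double and 58.3 CPM in control libraries. Exons on opposite strands also overlap by 392 bases for MCM7 and AP4M1, 186 for RFC5 and WSB2, 156 for RPA1 and SMYD4 and 132 for PRIM1 and HSD17B6. Shorter overlaps include 21 bases for RFC4 and EIF4A2, which averaged 576 CPM in double and 931 CPM in control libraries. The sources used here do not say whether the counting used strand, so reads of such pairs may be mixed.

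All 4 genes of chromatin assembly and histone supply rose in the double knockdown. CHAF1A and CHAF1B encode subunits of the assembly factor that places histones on new DNA. CHAF1A had 55.8, 49.3 and 48.5 CPM in the double libraries, 44.0, 41.0 and 41.5 CPM in the Msi1 libraries, 38.3, 38.8 and 39.6 CPM in the Msi2 libraries and 39.5, 42.0 and 36.5 CPM in the control libraries. CHAF1B had 53.2, 53.7 and 50.7 CPM in the double libraries, 42.3, 36.5 and 38.1 CPM in the Msi1 libraries, 42.6, 39.8 and 43.0 CPM in the Msi2 libraries and 47.3, 44.9 and 48.3 CPM in the control libraries. Double libraries were above control for both, with changes of 0.37 ± 0.07 (SE, adjusted p = 0.000159) for CHAF1A and 0.17 ± 0.07 (SE, adjusted p = 0.0347) for CHAF1B, and CHAF1B fell by 0.26 ± 0.07 (SE, adjusted p = 0.00377) in the Msi1 knockdown. CHAF1B shares 89 exon bases on the same strand with MORC3, which rose by 0.29 in the double knockdown. SLBP, which binds the stem-loop of histone mRNAs, had 79.0, 77.7 and 74.8 CPM in the double libraries, 60.8, 49.8 and 50.4 CPM in the Msi1 libraries, 54.6, 52.7 and 63.4 CPM in the Msi2 libraries and 61.9, 56.4 and 66.4 CPM in the control libraries. UHRF1, which recognises hemimethylated DNA, had 163, 163 and 152 CPM in the double libraries, 123, 116 and 119.5 CPM in the Msi1 libraries, 118, 105 and 113 CPM in the Msi2 libraries and 120.1, 112 and 119.8 CPM in the control libraries. Their double libraries stood above all others, with rises of 0.33 ± 0.08 (SE, adjusted p = 0.00253) for SLBP and 0.44 ± 0.06 (SE, adjusted p = 7.80e-06) for UHRF1.

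E2F1, a transcription factor that activates many of the other genes, had 46.7, 43.6 and 41.5 CPM in the double libraries, 38.6, 37.8 and 37.3 CPM in the Msi1 libraries, 29.1, 29.4 and 28.6 CPM in the Msi2 libraries and 30.7, 29.9 and 31.5 CPM in the control libraries. The groups were ordered without overlap, with the double libraries highest, then Msi1, then control, then Msi2. E2F1 rose by 0.52 ± 0.06 (SE, adjusted p = 1.32e-06) in the double and by 0.31 ± 0.06 (SE, adjusted p = 0.000594) in the Msi1 knockdown. The Msi2 change of −0.08 ± 0.06 (SE) did not pass the test.

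Scaled by the length of the longest annotated transcript, the 46 transcripts in control libraries ranged from 6.14 CPM per kb for GINS3 to 101 CPM per kb for PCNA, with a median of 18.4 CPM per kb. TYMS at 90.7 and MCM7 at 84.5 CPM per kb were next to PCNA, and ORC1 at 6.55 and MCM10 at 7.16 CPM per kb next to GINS3.

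Across the 3 comparisons with control, 23 of the 46 genes rose in the double knockdown and passed in neither single knockdown. Another 6 rose in the double and in at least 1 single knockdown: ORC6, MCM6, GINS3, GINS4, RRM2 and E2F1. GINS2, PCNA, DUT and CHAF1B rose in the double knockdown but fell in 1 single knockdown. MCM3, MCM6 and RRM2 passed in all 3 comparisons, and POLD1, POLD3, POLE and RFC1 in none. The shares of all tested genes with these combinations of calls were not counted, so these counts cannot be set against them.

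The Msi1 knockdown calls were ORC6, MCM6, GINS1, GINS3, GINS4, RRM2 and E2F1 upward and MCM3, POLA1, PRIM1, RPA1, RPA3, FEN1 and CHAF1B downward. MCM3, MCM6, GINS1, PRIM1, FEN1, RRM2, CHAF1B and E2F1, 8 of the 14, kept their calls whichever library was left out. The number that fell was 13 without Msi1 library 1 and 4 without Msi1 library 2 or 3 or control library 1 or 3, and the number that rose was 4 without control library 1. All Msi1 libraries lay above all control libraries for 8 of the 46 genes and below for 7, where 22.7% and 24.4% of all tested genes did so.

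The Msi2 knockdown calls were MCM6 and RRM2 upward and MCM3, MCM4, GINS1, GINS2, PCNA, RFC5, FEN1 and DUT downward. MCM3, MCM4, MCM6, GINS1, FEN1 and RRM2 kept their calls whichever library was left out. The number that fell was 5 without control library 1 or 3, and the number that rose was 4 without Msi2 library 2. Deviations of same-numbered Msi2 and control libraries correlated at 0.18, 0.41 and 0.68. Those of differently numbered ones ran from −0.531 to 0.214, so these values do not settle that the numbers pair libraries. With the replicate number as a block in a fit of these 6 libraries 4 genes rose and 18 fell, where 21.9% of all genes tested in that fit rose and 20.1% fell. All Msi2 libraries lay below all control libraries for 15 of the 46 genes and above for 4, where 17.9% and 20.8% of all tested genes did so.

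Against the single knockdowns the double knockdown was higher for most of the machinery in the reported fit. With the library trend as a covariate few of these calls remained against Msi1, while a larger part remained against Msi2. The median log2 difference of the 46 genes with the covariate was 0.11 against Msi1 and 0.23 against Msi2. That fit gave 3 genes higher than in Msi1, where 2.66% of all tested genes were. It gave 22 genes higher than in Msi2, where 8.24% of all tested genes were. The counts that follow are from the reported fit. Against Msi1, 38 of the 46 genes were higher and 1, GINS1, was lower, where 29.9% of all tested genes were higher and 26.2% lower, and the median log2 difference was 0.31. Against Msi2, 41 were higher and 0 lower by the edgeR test, where 22.7% of all tested genes were higher and 22.5% lower, and the median was 0.39. At an unadjusted p below 0.05, and under DESeq2, 0 genes were lower than in Msi2, but 1 was without Msi2 library 3. RRM2 differed most from Msi1, at 0.69 ± 0.08 (SE, adjusted p = 1.91e-06), with 0.65 ± 0.07 (SE, adjusted p = 2.99e-06) against Msi2. CDT1 was higher by 0.60 ± 0.07 (SE, adjusted p = 6.03e-06) than in Msi1 and by 0.41 ± 0.07 (SE, adjusted p = 0.000187) than in Msi2. GINS2 was higher by 0.56 ± 0.07 (SE, adjusted p = 9.63e-06) than in Msi1 and by 0.65 ± 0.07 (SE, adjusted p = 2.04e-06) than in Msi2. All double libraries lay above all Msi1 libraries for 40 of the 46 genes and below for 2, where 33.9% and 29.7% of all tested genes did so, and above all Msi2 libraries for 42 and below for 0, where 27.8% and 27.7% did so. In all, 35 genes were higher than in both single knockdowns, and 30 than in control and both single knockdowns. The share of all tested genes that did so was not counted. POLD1 and POLE passed in neither comparison, at 0.01 ± 0.07 and −0.15 ± 0.07 against Msi1 and 0.16 ± 0.07 and −0.12 ± 0.07 against Msi2 (SE).

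Between the single knockdowns 6 genes were higher and 8 lower in Msi2 than in Msi1, where 22.3% of all tested genes were higher and 18.9% lower. GINS1 differed most, lower in Msi2 with −0.76 ± 0.06 (SE, adjusted p = 2.38e-08). E2F1, MCM4 and ORC6 were also lower in Msi2, with −0.38 ± 0.06 (SE, adjusted p = 4.07e-05) for E2F1, −0.37 ± 0.06 (SE, adjusted p = 4.67e-05) for MCM4 and −0.36 ± 0.06 (SE, adjusted p = 9.61e-05) for ORC6. MCM3 was higher in Msi2, at 0.24 ± 0.06 (SE, adjusted p = 0.00175). The number higher was 1 without Msi1 library 2 or 3 or Msi2 library 1 or 3, and these 4 genes and MCM3, with GINS4 and RFC4, kept their calls whichever library was left out.

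The double knockdown was then set against the sum of both single changes on the log2 scale. For 34 of the 46 genes the double change was above that sum and for 0 below it by the edgeR test, where 21.3% of all tested genes were above and 19.1% below, and the median departure was 0.36. At an unadjusted p below 0.05, 1 gene lay below the sum, and under DESeq2 0 did. Without Msi2 library 3 or control library 2, 1 gene passed below it. With the library trend as a covariate only 4 genes passed above the sum, and 1, MCM6, passed below it. The values that follow are from the reported fit. FEN1 departed most, by 0.85 ± 0.10 (SE, adjusted p = 9.29e-06), followed by GINS2 at 0.83 ± 0.11 (SE, adjusted p = 1.84e-05). MCM3 departed by 0.68 ± 0.08 (SE, adjusted p = 8.02e-06), TK1 by 0.68 ± 0.12 (SE, adjusted p = 0.000391) and PCNA by 0.67 ± 0.11 (SE, adjusted p = 0.000175). The double knockdown was above the summed change both for genes that rose in it and for genes, such as FEN1 and MCM3, that were lower in each single knockdown. RRM2 departed by 0.31 ± 0.11 (SE, adjusted p = 0.0277), while the MCM6 change was close to the sum, at 0.01 ± 0.10 (SE, adjusted p = 0.958). The other genes that did not pass were GINS3, GINS4, POLA2, PRIM2, POLD1, POLD3, POLE, POLE2, RFC1, RFC4 and LIG1. Among the 46, POLE had the lowest value, at −0.22 ± 0.10 (SE, adjusted p = 0.0988).

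**Figure D4:**
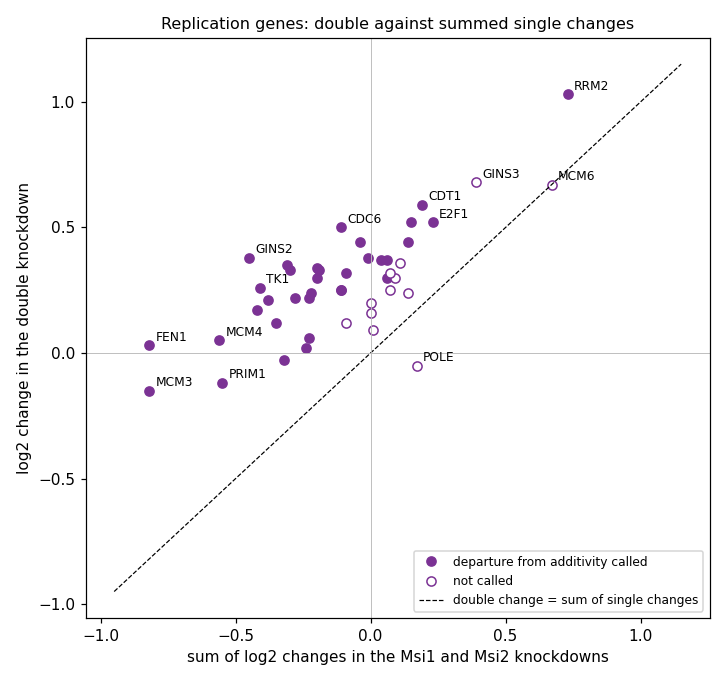
Log2 change of each of the 46 genes in the double knockdown (y axis) against the sum of its changes in the Msi1 and Msi2 knockdowns (x axis), all against control. The dashed line marks equality, and filled points are the 34 genes whose departure passed the edgeR test in the reported fit, which all lie above the line. With the library trend as a covariate 4 genes passed above the sum and 1 below it.

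The score of the trend between libraries also holds differences between groups, so as a covariate it can take up part of a knockdown change. The trend moved with the double knockdown, whose 3 scores did not overlap those of the other groups. With its score as a covariate, 19 of the 46 genes rose and 2 fell in the double knockdown against control, where 20.2% of all tested genes rose and 18.6% fell, and the median of the 46 was 0.16. The 20 calls that remained included RRM2, CDT1, CDC6, E2F1, MCM2, MCM5, MCM6, MCM7, GINS2, GINS3, GINS4, POLD2, RFC2, RRM1, CHAF1A and UHRF1, and MCM3 still fell, joined by PRIM1. PCNA, TYMS, TK1, DUT, SLBP and POLE2 were among the 14 lost. In the same fit 3 genes, MCM3, MCM7 and RRM2, were higher and 0 lower in double than in Msi1 libraries, where 2.66% and 2.12% of all tested genes were, and 22 were higher and 0 lower than in Msi2 libraries, where 8.24% and 9.71% of all tested genes were. In Msi1 13 genes rose and 4 fell against control, where 20.9% and 21.9% of all tested genes did. In Msi2 6 rose and 11 fell, where 23.1% and 19.5% of all tested genes did. Between the single knockdowns 4 were higher and 23 lower in Msi2 than in Msi1, where 25.5% and 22.5% of all tested genes were. The departure from additivity passed for 4 genes above the sum, MCM3, MCM4, GINS2 and FEN1, where 1.22% of all tested genes passed, and for 1 below it, where 2.72% passed, MCM6 (−0.35, adjusted p = 0.0285). With each library left out in turn, 28 to 32 genes rose against control, and all but ORC1, MCM3, POLA2, RPA2, TK1, DUT and CHAF1B kept their calls.

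**Figure D5:**
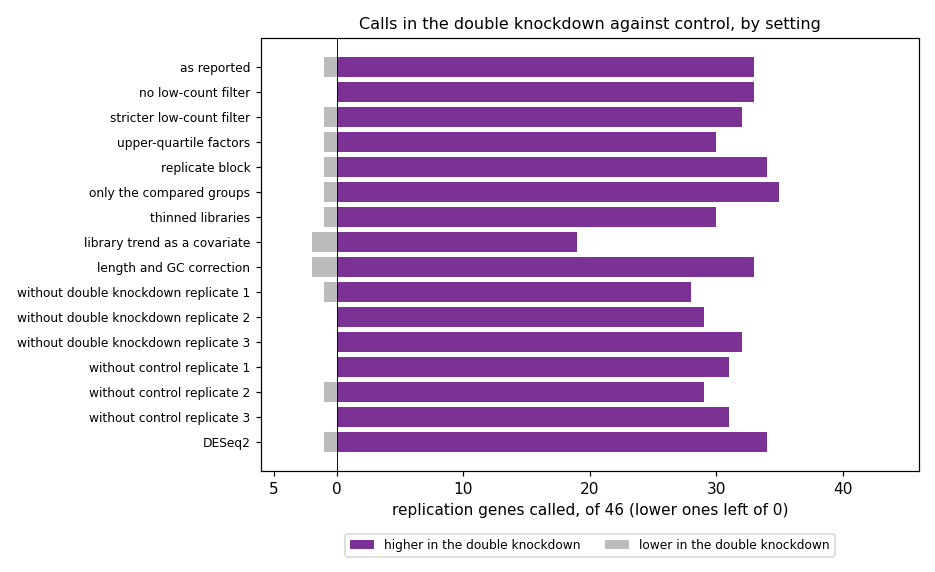
Number of the 46 genes called higher (right of 0) and lower (left of 0) in the double knockdown against control (x axis) in the reported fit and under each other setting (y axis). Counts of higher genes lie between 28 and 35 except with the library trend as a covariate, where 19 were higher.

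Genes around the machinery moved in part with it. Of 39 other replication factors 14 rose (35.9%) and 3 fell (7.69%) in the double knockdown, with a median of 0.12, where 26.6% of all tested genes rose and 25.3% fell. The 3 that fell were TIMELESS, a fork protection protein, and the histone chaperones SUPT16H and ASF1B. SUPT16H, a subunit of FACT, changed by −0.83 ± 0.06 (SE, adjusted p = 3.11e-09) and ASF1B by −0.47 ± 0.09 (SE, adjusted p = 0.000242). The other histone chaperones of the list had log2 changes above 0: SSRP1, the partner of SUPT16H in FACT, rose by 0.34 ± 0.07 (SE, adjusted p = 0.000287), and the values were 0.12 ± 0.06 (SE) for NASP, 0.13 ± 0.08 (SE) for ASF1A and 0.05 ± 0.07 (SE) for RBBP4, none of which passed the test. SUPT16H and ASF1B were also lower in the Msi2 knockdown, SUPT16H by 1.20 ± 0.06 (SE, adjusted p = 7.41e-11) and ASF1B by 1.13 ± 0.09 (SE, adjusted p = 4.71e-08). POLE3, an accessory subunit of polymerase epsilon, fell by 0.55 ± 0.08 (SE, adjusted p = 1.92e-05) in the Msi2 knockdown and changed by 0.15 ± 0.08 (SE) in the double knockdown. Of 17 other nucleotide supply genes 11 rose (64.7%) and 3 fell (17.6%) in the double knockdown. PPAT, which opens purine synthesis, rose by 0.62 ± 0.07 (SE, adjusted p = 6.32e-07) and CTPS1, which makes CTP, by 0.56 ± 0.07 (SE, adjusted p = 1.44e-06), while the deoxycytidine kinase DCK fell by 0.75 ± 0.10 (SE, adjusted p = 3.83e-06) in the double and 1.12 ± 0.10 (SE, adjusted p = 5.07e-08) in the Msi1 knockdown.

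In the double knockdown 26.6% of all tested genes rose and 25.3% fell. A list of 19 genes held the E2F and RB family without E2F1, together with LIN9, LIN37, LIN52, LIN54, MYBL2, CCNE1 and CCNE2. Of this mixed list 5 rose and 5 fell in the double knockdown, 26.3% each way, which is near those shares. RB1, which restrains E2F, fell by 0.21 ± 0.07 (SE, adjusted p = 0.0128) in the double and by 0.63 ± 0.07 (SE, adjusted p = 4.15e-07) in the Msi1 knockdown, with −0.02 ± 0.07 (SE) in the Msi2 knockdown. TFDP1, the dimer partner of E2F factors, fell by 0.51 ± 0.08 (SE, adjusted p = 2.56e-05) in the Msi1 and 0.30 ± 0.07 (SE, adjusted p = 0.00511) in the Msi2 knockdown and changed by −0.04 ± 0.07 (SE, adjusted p = 0.656) in the double knockdown. E2F6, a repressor of the family, rose by 0.53 ± 0.07 (SE, adjusted p = 2.20e-06) in the double knockdown. Of 20 checkpoint and fork repair genes 9 rose (45%) and 3 fell (15%): CHEK1, the checkpoint kinase, rose by 0.47 ± 0.07 (SE, adjusted p = 1.98e-05) and CDC25A, the phosphatase it restrains, by 0.71 ± 0.10 (SE, adjusted p = 1.03e-05), while the clamp-loading protein RAD17 fell by 0.28 ± 0.06 (SE, adjusted p = 0.000939). Of 20 genes of G2 and mitosis 15 rose (75%) and 0 fell in the double knockdown, with a median of 0.41. CDC20 rose by 0.87 ± 0.08 (SE, adjusted p = 5.21e-08), KIF20A by 0.71 ± 0.06 (SE, adjusted p = 3.28e-08) and CCNB1 by 0.65 ± 0.07 (SE, adjusted p = 5.36e-07). In the Msi2 knockdown 8 of these 20 rose (40%) and 2 fell (10%), where 16.7% and 13.6% of all tested genes did so. In the Msi1 knockdown 0 rose and 5 fell (25%), where 18.5% and 20.9% of all tested genes did so. The share that fell in either single knockdown was thus near that of all genes. The share that rose was above it in the Msi2 and below it in the Msi1 knockdown.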

How the data were processed

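RNA-seq data of 12 libraries were used. The deposited values are estimated counts per gene, given by the authors as whole numbers that are not scaled between libraries. Per the submitters' processing notes, which assign no roles, the tools were CASAVA 1.4 and kallisto 0.42.1 and the genome build was hg19. The sources used here do not say which transcripts were counted, how they were summed to genes or whether genes were filtered. No column was left unused, and no entry lacked a gene name. The total per library was 10.95e6 to 56.12e6 estimated counts, which sets the precision of low genes.

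Tests of the counts used edgeR 4.0.16 (R 4.3.3). The filter filterByExpr (minimum count 10) left 15021 genes. All 12 libraries entered 1 robust quasi-likelihood model with TMM factors, group means as coefficients and 8 residual degrees of freedom. Tests were two-sided, with p-values adjusted over all 15021 genes (Benjamini-Hochberg) and a threshold of 0.05. In all, 7 contrasts were tested, and departure from additivity subtracts both single-knockdown log2 changes from that of the double knockdown. An exact permutation test of 3 against 3 libraries cannot go below p = 0.1. CPM are computed on the TMM-scaled totals. Levels between genes are per kb of the longest GENCODE 29 transcript, available for 99.2% of tested genes. Scripts were tested on simulated data.

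The members and the lists of related genes were chosen with earlier results of these data known. Values in every library are given for members called in at least 2 comparisons with control, among the 4 largest called changes in 1 of them, or called in the departure from additivity; in related lists, the called genes with the 3 smallest p-values could be named. Replicate numbers were taken to pair libraries where every same-numbered pair of deviations from the group means correlated above 0.1. Only Msi2 and control libraries met this, with 0.18, 0.41 and 0.68. Differently numbered libraries of these groups reached 0.214, so the rule does not settle that the numbers pair them. Alternatives were DESeq2 1.42.0, upper-quartile factors, other filters, fits of the compared groups only, a replicate block, libraries thinned to a common total, a length and GC correction, the library trend as a covariate and leaving out each library. No 2 libraries of a group agreed within sampling noise. Promoters are from RefSeq (GRCh38.p14), another build than hg19; the count table holds no coordinates.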

Additional observations from a re-analysis of the deposited data

Results flagged for a closer look

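For 34 replication genes the double-knockdown change differed from the sum of the single-knockdown changes, by an edgeR test of that difference itself. On the log2 scale the departures, all above 0, were 0.45 for ORC1, 0.24 for ORC6, 0.60 for CDC6, 0.41 for CDT1, 0.54 for MCM2, 0.68 for MCM3, 0.60 for MCM4, 0.41 for MCM5, 0.39 for MCM7, 0.36 for CDC45, 0.26 for GINS1, 0.83 for GINS2, 0.50 for MCM10, 0.29 for POLA1, 0.42 for PRIM1, 0.30 for POLD2, 0.67 for PCNA, 0.37 for RFC2, 0.36 for RFC3, 0.29 for RFC5, 0.47 for RPA1, 0.47 for RPA2, 0.58 for RPA3, 0.85 for FEN1, 0.33 for RRM1, 0.31 for RRM2, 0.52 for TYMS, 0.68 for TK1, 0.50 for DUT, 0.31 for CHAF1A, 0.59 for CHAF1B, 0.63 for SLBP, 0.48 for UHRF1 and 0.29 for E2F1. When the library trend entered the fit, 4 of these departures remained: those of MCM3, MCM4, GINS2 and FEN1. Double knockdown cells were sorted for both tags, while each single-knockdown virus carried its own tag. Lower levels of both transcripts and the presence of both tags cannot be told apart here. Any cause of the departures was not tested.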

How the results depend on the processing

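Of the 46 genes, 33 were higher and 1 lower in the double knockdown than in control, and DESeq2 gave 34 and 1. The largest shifts came with the library trend as a covariate. It gave 13 higher and 4 lower in Msi1, 6 higher in Msi2, and 19 higher and 2 lower in the double knockdown against control. It also gave 3 higher and 0 lower in double than in Msi1, 22 higher in double than in Msi2, 23 lower in Msi2 than in Msi1, and 4 departures above and 1 below the sum of the single changes. All-gene counts under it were 400 higher and 318 lower for double against Msi1, 1238 and 1459 for double against Msi2, and 183 above and 409 below the sum. Reversed log2 values under it were, for double against Msi1, −0.18 for GINS3, −0.01 for POLA1, −0.07 for PRIM1, −0.05 for PRIM2, −0.03 for POLD3, −0.00 for RFC1, −0.05 for RPA2 and −0.02 for RRM1. For double against Msi2 they were −0.02 for RPA1 and −0.01 for RPA3, for the departure from additivity −0.35 for MCM6, −0.08 for RFC2 and −0.04 for RRM2, and for double against control −0.00 for TK1. The cause was not tested. Fits of only the compared groups gave 1 gene higher in Msi2 than in Msi1 and 2 lower in double than in Msi1. Thinned libraries gave 2 higher in Msi2 than in Msi1, 2 lower in double than in Msi1 and 1 departure below the sum. The length and GC correction gave 13 lower in Msi2 than in Msi1 and 2 lower in double than in control. Without a low-count filter 5 were lower in Msi2 and 0 lower in the double knockdown against control. A stricter filter and upper-quartile factors each gave 2 lower in double than in Msi1, 12 lower in Msi2 than in control and 12 lower in Msi2 than in Msi1. With each library left out, counts higher and lower ranged over 4 to 7 and 4 to 13 in Msi1, 2 to 4 and 5 to 8 in Msi2, and 28 to 32 and 0 to 1 in double against control. They ranged over 32 to 40 higher for double against Msi1, 35 to 39 and 0 to 1 for double against Msi2, 1 to 8 and 6 to 9 for Msi2 against Msi1, and 27 to 41 and 0 to 1 for departures above and below the sum. Without control library 1, 1646 of all genes were higher in Msi2, and the range was 1646 to 2307. The replicate block over all libraries gave 7 higher and 10 lower in Msi1, 3 and 10 in Msi2 and 34 and 1 in double against control, and 39 and 1, 41 and 0 for double against Msi1 and Msi2. A block in the fit of only Msi2 and control, chosen after seeing the data, gave 4 higher and 18 lower, where 21.9% and 20.1% of all genes tested in it were called, and apart from the Msi2 pairing the numbers pair no groups by the rule used.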
